A study of Mus musculus with 4 samples.

Results

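The 10 genes described here encode PIWI proteins, Tudor domain proteins and other factors of the germ granule, and were taken as a named list from the 25824 gene symbols in the tables: PIWIL1, PIWIL2, TDRD1, TDRD5, TDRD6, TDRD7, TDRD9, DDX4, MAEL and RNF17. All 10 were listed and had counts in every library. piRNAs are small RNAs that guide PIWI proteins to transposon transcripts and other RNAs in germ cells. Tudor domain proteins bind methylated arginines of PIWI proteins and assemble the perinuclear granules in which piRNAs are made, and in the adult testis the pathway is most active in meiotic and early postmeiotic cells. Loss of most of these proteins in male mice stops spermatogenesis in meiosis or at the round spermatid stage.

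The cells came from testes of 2 WT mice (Ctcf wt/wt) and 2 Ctcf-cKO mice (Stra8-iCre-Ctcf f/Δ), all 15 weeks old and of the C56BL/6J background named in the labels. Ctcf encodes the DNA binding protein CTCF, Stra8-iCre is a Cre transgene under the promoter of Stra8, which is active in premeiotic germ cells, and f/Δ is a floxed and a deleted allele. The Cre does not act in undifferentiated spermatogonia or somatic cells, which keep the floxed allele. The study's methods also allow WT littermates with floxed alleles but no Cre, and describe pooled filtrates of Ctcf-cKO tubules. Each mouse gave a single library of 3′ ends on the ddSEQ droplet platform. Strings of 4 values below are ordered as WT replicate 1, WT replicate 2, Ctcf-cKO replicate 1 and Ctcf-cKO replicate 3, numbered as the submitters did.

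The libraries held 6701235, 4859455, 2652665 and 1593546 counts. CTCF had 110, 49, 4 and 7 counts in all barcodes. The cells kept numbered 96, 241, 228 and 246. Of these 5, 32, 14 and 10 were spermatocyte-like, 15, 138, 40 and 12 round spermatid-like and 62, 24, 81 and 92 elongating spermatid-like, each cluster being named by at least 3 raised markers. The remaining cells were somatic-like or in an unnamed cluster of 100 cells. The round spermatid-like class joined clusters 0 and 5, and cluster 5 held 12 of 15 cells of WT replicate 1 while cluster 0 held 101 of 138 cells of WT replicate 2. An elongating cluster was led by the haemoglobin gene HBB-BS. A single cell barcode occurred in 2 libraries. Both Ctcf-cKO libraries were shallower than both WT libraries, and genotype and depth cannot be told apart. Levels are given as CPM, the counts of a gene scaled to a total of 1000000 counts over the cells of a class in a mouse. For the spermatocyte-like, round and elongating spermatid-like classes they rest on sums of 39737 to 1606050 counts, and counting error is only part of their error.

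The start regions of the members were read from RefSeq promoter windows (GRCm38.p6, 250 bases before to 50 after a start site), of which 11 were listed for 7 members. The members without a window were PIWIL2, TDRD6 and RNF17. A pair from each pattern of levels described below is shown. In the windows of PIWIL1 (chr5:128735996-128736295, forward strand) and TDRD5 (chr1:156303299-156303598, reverse strand), both highest in spermatocyte-like cells, capitals mark matches to the MYB hexamer CAACTG on either strand, also with T as its first base, G as the fifth, or both. MYB factors are of interest because MYBL1 is a known activator of piRNA pathway genes at meiosis.
PIWIL1: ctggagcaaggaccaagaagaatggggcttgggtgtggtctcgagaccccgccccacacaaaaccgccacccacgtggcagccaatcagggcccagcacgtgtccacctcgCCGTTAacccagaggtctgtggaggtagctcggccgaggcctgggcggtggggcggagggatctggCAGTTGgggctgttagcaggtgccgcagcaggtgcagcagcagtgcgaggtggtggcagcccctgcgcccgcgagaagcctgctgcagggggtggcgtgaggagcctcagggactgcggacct
TDRD5: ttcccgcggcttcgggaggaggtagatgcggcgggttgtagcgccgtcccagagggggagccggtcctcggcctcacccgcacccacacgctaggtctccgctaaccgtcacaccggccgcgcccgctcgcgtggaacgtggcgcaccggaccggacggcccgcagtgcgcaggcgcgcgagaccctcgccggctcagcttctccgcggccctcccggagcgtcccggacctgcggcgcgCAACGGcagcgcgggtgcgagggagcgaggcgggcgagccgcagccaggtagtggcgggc
In the windows of MAEL (chr1:166238695-166238994, reverse strand) and DDX4 (chr13:112652261-112652560, reverse strand), whose counts stayed high in round spermatid-like cells, capitals mark CG dinucleotides.
MAEL: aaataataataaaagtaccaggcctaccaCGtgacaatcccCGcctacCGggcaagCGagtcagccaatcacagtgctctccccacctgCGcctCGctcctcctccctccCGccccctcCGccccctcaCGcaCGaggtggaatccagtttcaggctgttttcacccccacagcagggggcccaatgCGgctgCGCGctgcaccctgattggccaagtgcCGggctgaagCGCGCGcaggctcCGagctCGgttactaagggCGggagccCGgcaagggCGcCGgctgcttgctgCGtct
DDX4: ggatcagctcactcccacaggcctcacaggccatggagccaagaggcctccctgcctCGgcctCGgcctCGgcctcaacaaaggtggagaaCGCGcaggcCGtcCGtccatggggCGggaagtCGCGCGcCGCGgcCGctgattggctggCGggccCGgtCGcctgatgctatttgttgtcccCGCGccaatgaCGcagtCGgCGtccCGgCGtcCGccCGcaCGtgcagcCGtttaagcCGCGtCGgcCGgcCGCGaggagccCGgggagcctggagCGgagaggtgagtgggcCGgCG

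PIWIL1 held 2 of these hexamers, at 139 and 73 bases before the start, and TDRD5 held 1 at 10 bases before it. TDRD7, with the other pattern of levels, also had matches in 2 of its windows. The windows of TDRD1, with the same pattern as PIWIL1 and TDRD5, had 0 matches, as had those of MAEL, DDX4 and TDRD9. Matches thus did not separate the patterns of levels. In all, 4 of 11 member windows had a match, against 28.3% of the 32851 windows of all genes, so the share among so few windows was close to the background. A core of the CTCF motif, searched on either strand, was found in 1 of 11 windows (TDRD7) and in 2.43% of all windows. The cyclic AMP response element TGACGTCA was in 0 of 11 windows and in 1.79% of all. The median was 8.0 CG dinucleotides per 100 bases, against 2.33 over all windows, with 16.0 for TDRD5, 12.7 for DDX4, 8.0 for MAEL, 6.0 for PIWIL1 and 3.33 for TDRD9. The windows were not alike in this, since those of TDRD1 ran from 1.0 to 8.33 and those of TDRD7 from 1.33 to 10.7. A match or its absence describes these letters only.

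Apart from TDRD9, the members were placed in 2 patterns by the step between germ cell classes at which the mice lay apart. They are described without a test since the classes came from clustering the same cells, although without these genes. For PIWIL1, PIWIL2, TDRD1 and TDRD5, the values of all 4 mice were higher in spermatocyte-like than in round spermatid-like cells, and the ranges did not overlap. In spermatocyte-like cells of Ctcf-cKO replicate 3, PIWIL2, TDRD1 and TDRD5 rested on only 2, 2 and 3 counts. For TDRD6, TDRD7, DDX4, MAEL and RNF17, the levels in round spermatid-like cells lay above those in elongating spermatid-like cells in all 4 mice, also without overlap. At the earlier step, from spermatocyte-like to round spermatid-like cells, these genes were not alike. TDRD9 was low in each class after spermatocyte-like cells, with overlapping ranges. The share of all genes whose classes lay apart in these ways was not computed. The separations are thus not shown to be particular to these members.

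**Figure D1:**
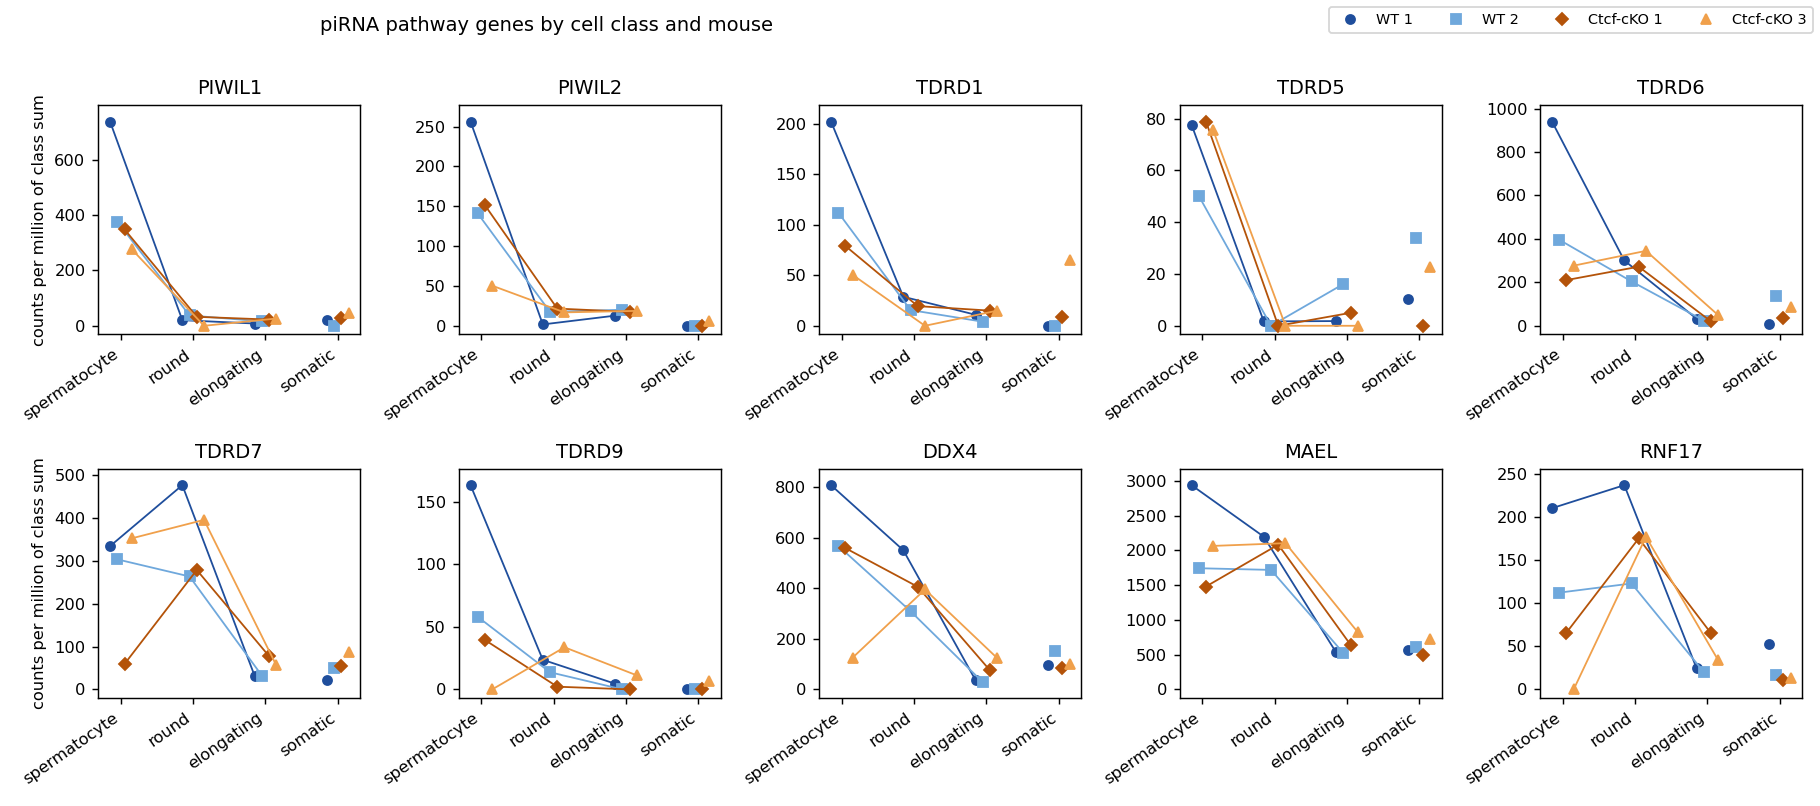
Level of each piRNA pathway gene (CPM of the class sum, linear axis with its own scale per gene) in spermatocyte-like, round spermatid-like, elongating spermatid-like and somatic-like cells, with a point for each mouse and lines joining the germ cell classes of a mouse. PIWIL1, PIWIL2, TDRD1 and TDRD5 drop after the spermatocyte-like class in all 4 mice, while MAEL, DDX4, TDRD6, TDRD7 and RNF17 drop after the round spermatid-like class.

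Gene positions are those of GENCODE M21 on GRCm38. PIWIL1 (MIWI, chr5:128702524-128755474) is the PIWI protein of pachytene spermatocytes and round spermatids, which binds pachytene piRNAs. Its level in spermatocyte-like cells was 738, 377, 348 and 277 CPM. Its round spermatid-like level was 20.3, 37.4 and 32.4 CPM, with 0 counts of 118863 in Ctcf-cKO replicate 3, which allows up to 25.2 CPM. The mean over mice was 435 ± 206 CPM in the former and 22.5 ± 16.6 CPM in the latter (SD, n = 4), and 18.3 ± 7.90 CPM in elongating spermatid-like cells. Its level after the spermatocyte-like class was therefore near that in somatic-like cells, 23.6 ± 18.9 CPM.

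PIWIL2 (MILI, chr14:70372477-70429383) is the PIWI protein that is present from fetal germ cells onwards. It had 256, 141, 151 and 50.3 CPM in spermatocyte-like cells, the last from only 2 counts. In round spermatid-like cells it had 1.69, 17.4, 21.6 and 16.8 CPM, and in elongating spermatid-like cells 17.3 ± 3.22 CPM (SD, n = 4). All 4 mice thus had lower values after the spermatocyte-like class, but in Ctcf-cKO replicate 3 it rested on 2 counts in either class.

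TDRD1 (chr19:56826209-56870012) is a Tudor scaffold that binds PIWIL2 in the granules between mitochondria. It had 202, 112, 78.9 and 50.3 CPM in spermatocyte-like cells and 28.7, 15.6, 19.4 and 0 CPM in round spermatid-like cells. In Ctcf-cKO replicate 3 these were 2 and 0 counts, and the 0 allows up to 25.2 CPM. TDRD5 (chr1:156255296-156303664), which is needed for piRNA biogenesis and for the round spermatid granule, had 77.7, 50.2, 78.9 and 75.5 CPM in spermatocyte-like cells, the last from only 3 counts. Only 1 count of TDRD5 was found over all round spermatid-like cells, against 51 counts in spermatocyte-like cells. The levels of TDRD5 in that class did not separate the genotypes.

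TDRD9 (chr12:111971559-112068854), a putative RNA helicase that works with PIWIL4 in transposon silencing, had 163, 58.0, 39.5 and 0 CPM in spermatocyte-like cells. The 0 of Ctcf-cKO replicate 3 came from 39737 counts, which allow up to 75.5 CPM. In round spermatid-like cells it had 23.7, 13.7, 2.16 and 33.7 CPM. The order of the classes held in 3 of 4 mice and cannot be read in the last one at this depth.

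MAEL (chr1:166201201-166238747), an HMG box protein of the nuage needed for transposon silencing, had 2937, 1743, 1479 and 2064 CPM in spermatocyte-like cells and 2196, 1718.5, 2081 and 2103 CPM in round spermatid-like cells. These ranges overlapped. In elongating spermatid-like cells it had 533, 524, 643 and 824 CPM, a mean of 631 ± 139 CPM against 2025 ± 210 CPM in the round class (SD, n = 4).

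DDX4 (the mouse Vasa homologue, chr13:112598333-112652475) is an RNA helicase of the nuage and the chromatoid body and a general germ cell marker. It had 808, 568, 559 and 126 CPM in spermatocyte-like cells, where Ctcf-cKO replicate 3 stood apart with 5 counts. Its round spermatid-like values were 551, 309, 406 and 395 CPM, and in elongating spermatid-like cells 36.4, 28.2, 75.0 and 124 CPM. The mean was 6.32 times as high in the round as in the elongating class.

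TDRD6 (chr17:43615335-43630299), a large Tudor protein that gives the chromatoid body its structure, had 940, 396, 210 and 277 CPM in spermatocyte-like cells. In round spermatid-like cells it had 301, 204, 272 and 345 CPM, and in elongating spermatid-like cells 31.4 ± 12.7 CPM (SD, n = 4). TDRD7 (chr4:45965334-46034761), which also remodels the chromatoid body, had 334, 303, 59.2 and 352 CPM in spermatocyte-like cells. It had 476, 263, 279 and 395 CPM in round spermatid-like cells. The mean of TDRD6 was 8.94 times and that of TDRD7 7.15 times as high in the round as in the elongating class.

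RNF17 (chr14:56402581-56525032), a RING finger and Tudor protein that limits the ping-pong cycle in meiosis, was the only member that was higher in round spermatid-like than in spermatocyte-like cells in all 4 mice. It had 210, 112, 65.8 and 0 CPM in spermatocyte-like cells and 237, 123, 175 and 177 CPM in round spermatid-like cells. In WT replicate 2 the levels were close, from 58 counts of 517641 and 197 of 1606050. The 0 of Ctcf-cKO replicate 3 allows up to 75.5 CPM, and the ranges of the classes overlapped.

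Summed over the 10 members, the level was 6667, 3860, 3071 and 3272 CPM in spermatocyte-like cells and 3836, 2702, 3288 and 3466 CPM in round spermatid-like cells. It was 697, 685, 940 and 1157 CPM in elongating spermatid-like cells. MAEL alone gave 1587 of 3453, 5274 of 8546 and 1194 of 1622 counts in the spermatocyte-like, round and elongating classes. In barcodes with fewer than 200 genes it gave 3260 of 5231. The members' sum, here and below, thus follows MAEL more than any other member. The log2 ratio of round to elongating was 2.46, 1.98, 1.81 and 1.58, a mean of 1.96 ± 0.37 (SD, n = 4). That of spermatocyte-like to round was 0.80, 0.51, -0.099 and -0.083, a mean of 0.28 ± 0.45. It was above 0 in both WT mice and slightly below 0 in both Ctcf-cKO mice. The spermatocyte-like sum of Ctcf-cKO replicate 3 rested on 130 counts, and the genotypes were not tested on this ratio.

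The sums in elongating spermatid-like cells overlapped those in cells outside the germ line. The somatic-like cells, which should lack the pathway, held 778, 1001, 711 and 1157 CPM of the members' sum. Barcodes with fewer than 200 genes, taken here to hold free RNA of broken cells, had 3639, 2831, 1547 and 2013 CPM. This limit took unlike pools from the mice, with 1367, 4392, 5592 and 6114 barcodes and 104983, 590328, 1081040 and 748090 counts. The sum in elongating spermatid-like cells was below that of free RNA in all 4 mice and is not read as expression above background. In round spermatid-like cells it was above free RNA in 3 mice and slightly below in WT replicate 2, and in spermatocyte-like cells it was above in all 4. With free RNA subtracted, the mean log2 ratio of round to elongating was 2.29.

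**Figure D2:**
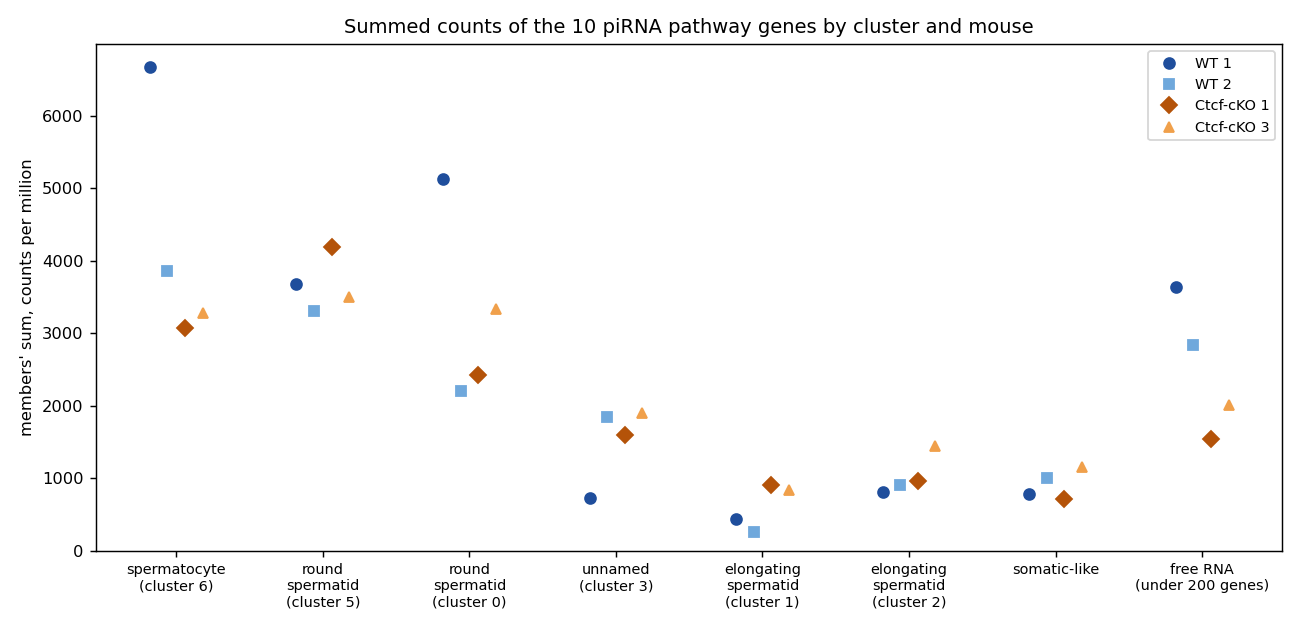
Summed CPM of the 10 members (linear axis from 0) in the germ cell clusters, ordered as spermatocyte, round spermatid, unnamed and elongating spermatid clusters, then in somatic-like cells and in barcodes under 200 genes, with a point for each mouse. The sums lie between 3071 and 6667 in the spermatocyte cluster and between 252 and 1441 in the elongating clusters, where they overlap those of somatic-like cells.

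Within the round spermatid-like class, cluster 5 had 18 and cluster 0 had 12 of 18 round spermatid markers raised. In cluster 5 the members' sum was 3674, 3300, 4187 and 3502 CPM. In cluster 0 it was 5120, 2197, 2425 and 3328 CPM, the first from 3 cells. PIWIL1 was at 26.4 CPM or less in cluster 5 and at 60.2 CPM or less in cluster 0, below the spermatocyte-like level in every mouse. The unnamed cluster 3 had 729, 1844, 1600 and 1895 CPM of the members' sum, between the round and the elongating classes in all 4 mice.

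Among the 10 members, the pattern over the 12 sums of mouse and germ cell class (Pearson correlation of log2(CPM + 1) with the sum of the other 9) was most like the rest for TDRD6 (0.98), MAEL (0.96) and DDX4 (0.91). It was least like the rest for TDRD5 (0.26), RNF17 (0.33), PIWIL2 (0.38) and PIWIL1 (0.41). The 5 genes outside the pathway lists most like the members' sum, of 3496 genes with enough counts, were STPG4 (0.987), LARP7 (0.985), LYAR (0.985), COG6 (0.985) and PABPC1 (0.981). STPG4 is a germ cell gene, LARP7 stabilizes the small nuclear RNA 7SK, and PABPC1 is the cytoplasmic poly(A) binding protein. MAEL had the most counts in every members' sum that included it. The 12 sums share libraries, depth and cell classes, and the correlations describe them without a test.

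The comparison of genotypes within a class asked whether loss of Ctcf went with other levels of these genes in the same kind of cell. In spermatocyte-like cells, 9 of 10 members passed the filter on low counts (not TDRD9), and 0 differed between genotypes by the quasi-likelihood test of edgeR (adjusted p after Benjamini and Hochberg), as did 0% of the 3583 genes tested. DESeq2 called 0 members as well, and 1 member had an unadjusted p under 0.05. The values of 5 of these 9 members lay lower in both Ctcf-cKO mice than in both WT mice, where 24.9% of all genes did so. The median log2 fold change was -0.82 over the members and -0.13 over all genes. TDRD6 had the unadjusted p under 0.05, with a log2 fold change of -1.43 (SE 0.59, 95% interval -2.85 to -0.02, adjusted p = 0.649 from edgeR). For RNF17 it was -1.78 (SE 1.12), for PIWIL1 -0.76 (SE 0.56), for DDX4 -0.85 (SE 0.74) and for MAEL -0.40 (SE 0.49). Only TDRD5 lay above 0, at 0.34 (SE 0.90).

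These sums rested on few cells, and the 95% interval for RNF17 ran from -4.45 to 0.89, so a difference of this size was not detectable at this depth. Leydig markers moved with the genotype in the same sums. The 12 markers summed to 163 and 226 CPM in WT and to 9534 and 6820 CPM in Ctcf-cKO spermatocyte-like cells, and all 12 had counts in this class. The 16 elongating spermatid markers did not separate the genotypes, at 3986, 73572, 70846 and 66538 CPM, and WT replicate 1 stood apart. Their part in the result was not tested.

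In round spermatid-like cells, 8 of 10 members were tested (not PIWIL2 and TDRD5), and 0 differed by edgeR, with 0 unadjusted p under 0.05 and 0 calls by DESeq2. Over all genes it was 0% of 6387. For 0 of the 8 did the genotypes lie apart, where 14.5% of all genes had both Ctcf-cKO mice below and 17.7% above. The members with most counts had the narrowest intervals. MAEL had a log2 fold change of 0.02 (SE 0.32, 95% interval -0.73 to 0.77). DDX4 had -0.15 (-1.03 to 0.73), TDRD7 -0.22 (-1.12 to 0.69), TDRD6 0.21 (-0.65 to 1.06) and RNF17 -0.07 (-1.07 to 0.94). Adjusted p from edgeR was 0.9995 for each of these. A change of 2-fold or more in either direction lay outside the interval of MAEL only, and the 0 calls in this class do not show that the genotypes were alike. The 12 Leydig markers summed to 92.9 and 177 CPM in WT and to 2222 and 740 CPM in Ctcf-cKO round spermatid-like cells. The 16 elongating spermatid markers were at 28091, 109019, 71790 and 24734 CPM and did not separate the genotypes. Their part in the result was not tested.

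**Figure D3:**
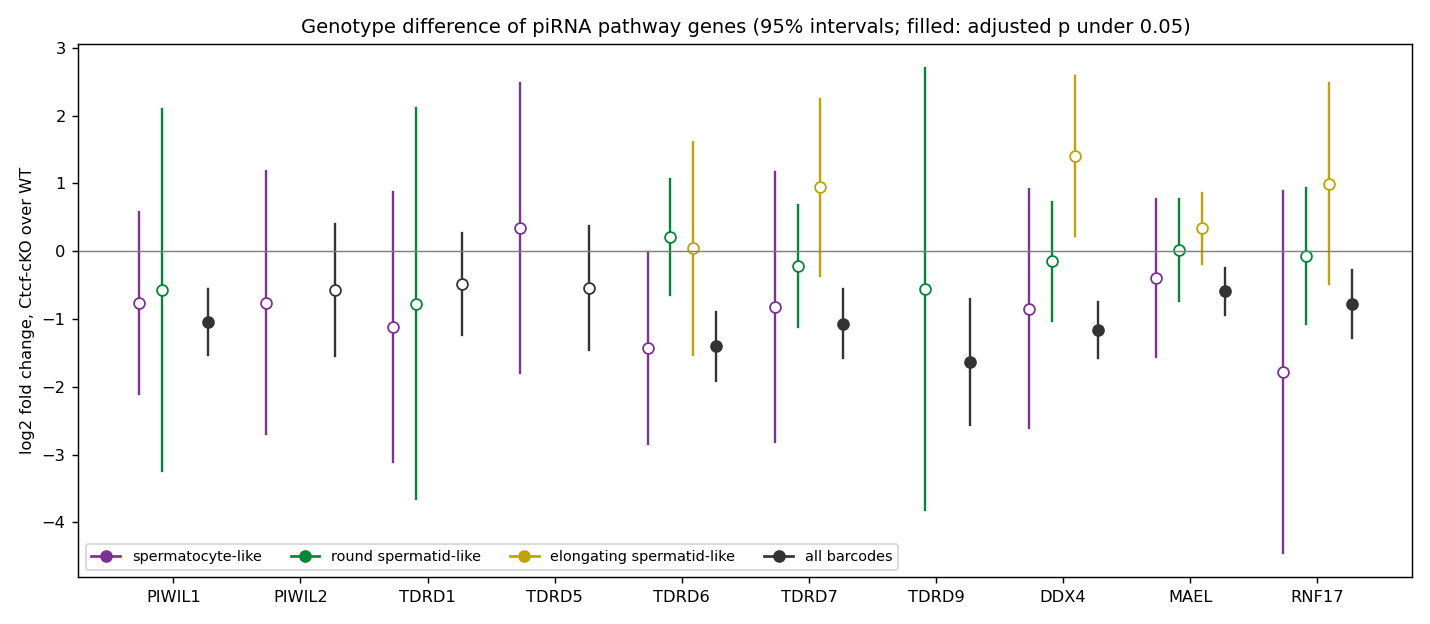
Log2 fold change of Ctcf-cKO over WT (linear axis) for each member that passed the filter in spermatocyte-like, round spermatid-like and elongating spermatid-like cells and in all barcodes, with lines for 95% intervals and filled points for adjusted p under 0.05 in edgeR. The 7 filled points are all in the sums over all barcodes, from -0.59 for MAEL to -1.63 for TDRD9.

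In elongating spermatid-like cells, only TDRD6, TDRD7, DDX4, MAEL and RNF17 passed the filter, and 0 of these 5 passed edgeR's test, with 1 unadjusted p under 0.05, while 18.5% of the 3507 genes tested did, 3.62% as lower. DESeq2 also called 0 members. In 4 of the 5 both Ctcf-cKO mice lay above both WT mice, where 35.1% of all genes did so, and in 0 both lay below, against 19.6%. The largest difference was that of DDX4, at 36.4 and 28.2 CPM in WT and 75.0 and 124 CPM in Ctcf-cKO, a log2 fold change of 1.41 (SE 0.59, adjusted p = 0.0901). For MAEL it was 0.34 (SE 0.26), for TDRD7 0.94 (SE 0.65) and for RNF17 0.999 (SE 0.74). All 9 Leydig and all 8 Sertoli markers tested were called higher in the same sums, with 22.7 and 48.4 CPM of the Leydig list in WT against 2735 and 2677 CPM in Ctcf-cKO. The sum of the red blood cell markers was 1.82 and 0 CPM in WT against 7245 and 1138 CPM. Their part was not tested. With free RNA subtracted, DDX4 passed the threshold of edgeR (adjusted p = 0.0161), where 355 of 3192 genes were called higher and 30 lower. The amount subtracted came from the free RNA of each mouse, in which DDX4 averaged 523 CPM in WT and 160 CPM in Ctcf-cKO. It removed nearly all DDX4 counts of the WT sums and few of the Ctcf-cKO sums. This call is therefore not read as a difference between genotypes. Clustering without batch correction instead gave DDX4 a log2 fold change of -1.24.

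The test of whether the step between stages differed between genotypes used all 12 sums with the mouse as a block. By edgeR 0 of 10 members passed for either step, with 0 unadjusted p under 0.05 and 0 calls by DESeq2, as did 0% of the 7887 genes tested. TDRD6 was lower in round spermatid-like than in spermatocyte-like cells of both WT mice, at 301 against 940 and 204 against 396 CPM. It was higher in both Ctcf-cKO mice, at 272 against 210 and 345 against 277 CPM. The difference of the steps was 1.51 on the log2 scale (SE 1.03, 95% interval -0.51 to 3.52, adjusted p = 1). For MAEL, with the same directions in the 4 mice, it was 0.38 (SE 1.17). The steps of MAEL in WT replicate 2 and Ctcf-cKO replicate 3 were small.

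Summed over all barcodes of a mouse, without any choice of cells, the members were lower in Ctcf-cKO. By edgeR 7 of 10 were called lower and 0 higher, against 10.4% of the 14533 genes tested that were called lower and 28.5% called in either direction. The values of 9 members did not overlap between genotypes, all lower in Ctcf-cKO, as did 35.9% of all genes. The median log2 fold change was -0.91 over the members and -0.05 over all genes. In such sums fewer cells of a type and less RNA per cell cannot be told apart. The sums also include barcodes that were not kept as cells, and unequally by mouse. The kept cells held 29.0%, 54.1%, 56.2% and 50.9% of the counts. In WT replicate 1 the barcodes taken as free RNA held only 104983 of 6701235 counts. Much of that library thus lay in barcodes of neither kind. Sums over the kept cells alone are given below.

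Of the PIWI genes, PIWIL1 had 143 and 140 CPM in WT and 63.7 and 68.4 CPM in Ctcf-cKO. Its log2 fold change was -1.04 (SE 0.22, adjusted p = 0.00488). PIWIL2 had 21.04 and 43.2 CPM in WT and 27.1 and 13.8 CPM in Ctcf-cKO, overlapping values with a log2 fold change of -0.57 (SE 0.45, adjusted p = 0.371 from edgeR). The 2 PIWI genes thus differed in call, but the difference between them was not tested.

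Of the Tudor genes, TDRD6 had 406 and 299 CPM in WT and 103 and 154 CPM in Ctcf-cKO, a log2 fold change of -1.40 (SE 0.23, adjusted p = 0.00119). TDRD7 had 321 and 202 CPM against 127 and 112 CPM, a log2 fold change of -1.07 (SE 0.23, adjusted p = 0.00583). TDRD9 had 44.8 and 30.9 CPM against 7.92 and 16.3 CPM, a log2 fold change of -1.63 (SE 0.42, adjusted p = 0.0141). These 3 fell without overlap of the genotypes. RNF17 had 149 and 119 CPM against 79.5 and 70.3 CPM, a log2 fold change of -0.78 (SE 0.23, adjusted p = 0.0242). TDRD1 (37.2 and 38.3 CPM against 19.98 and 32.6 CPM) and TDRD5 (24.3 and 16.5 CPM against 11.7 and 15.7 CPM) did not pass the test. Their log2 fold changes were -0.49 (SE 0.35, adjusted p = 0.318) and -0.53 (SE 0.42, adjusted p = 0.368).

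Of the other granule factors, DDX4 had 461 and 396 CPM in WT and 198 and 169 CPM in Ctcf-cKO, a log2 fold change of -1.16 (SE 0.19, adjusted p = 0.00108). MAEL had 1891 and 1659 CPM against 1096 and 1177 CPM, a log2 fold change of -0.59 (SE 0.16, adjusted p = 0.0171). Both genes had most counts in round spermatid-like cells of the kept classes, where their intervals included 0.

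**Figure D4:**
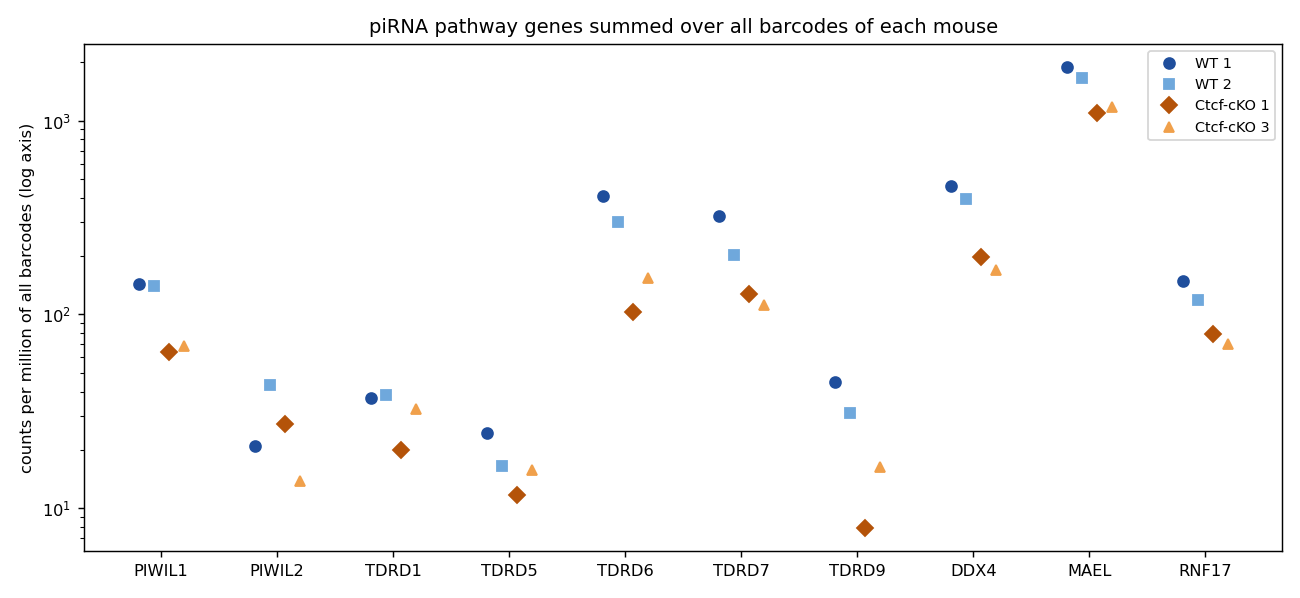
CPM over all barcodes (log axis) for each member, with a point for each mouse. Both Ctcf-cKO mice lie below both WT mice for 9 members, and PIWIL2 is the exception.

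Other lists moved in the same sums. Of 18 round spermatid markers 17 were called lower, from 5829 and 5174 CPM in WT to 2887 and 2781 CPM in Ctcf-cKO, and of 19 spermatocyte markers tested 9 were called lower. All 12 Leydig markers were called higher, from 619 and 244 CPM to 6455 and 5809 CPM, as were 11 of 12 macrophage markers and all 11 Sertoli markers. Somatic-like cells were 11.5% and 3.32% of the kept cells in WT and 28.5% and 41.5% in Ctcf-cKO. Their part in the fall of the members was not tested. In sums over the kept cells alone, an alternative added after seeing the data, 0 of 10 members were called lower by edgeR, 3 had an unadjusted p under 0.05, and the median log2 fold change was -0.67, while 3.18% of all genes were called lower. In barcodes with fewer than 200 genes, 1 of 9 members tested (DDX4) was called lower, as were 0.585% of all genes. Without Ctcf-cKO replicate 1 the number called was 1 (DDX4), and without Ctcf-cKO replicate 3 it was 2 (TDRD6 and TDRD9), with all 10 log2 fold changes below 0 in either case. The share of all genes called lower also went down, to 2.09% and 2.24%. Without WT replicate 1 it was 5 members and 6.63% of all genes, and without WT replicate 2 it was 7 members and 13.1%.

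The other genes of the pathway were taken from a list of 31, of which 29 were in the tables. In all barcodes 25 were tested, and 8 were called lower and 1 higher by edgeR. Of all 14533 genes tested, edgeR called 10.4% lower and 28.5% in either direction. DESeq2 called 6 of the list lower and 0 higher, against 7.97% of all genes called lower. The median log2 fold change of the list was -0.57. Among the 5 with most counts, DDX25 (the helicase GRTH of the chromatoid body) had 635 and 593 CPM in WT against 324 and 336 CPM in Ctcf-cKO, a log2 fold change of -0.84 (adjusted p = 0.00408). GTSF1, a zinc finger partner of PIWI proteins, had 507 and 450.1 CPM against 264 and 303 CPM (log2 fold change -0.70, adjusted p = 0.0139). KIF17, a kinesin found in the chromatoid body, had 211 and 191 CPM against 129 and 131 CPM (log2 fold change -0.57, adjusted p = 0.0469). TEX15, which acts with PIWIL4 in transposon silencing, had 144 and 39.3 CPM against 39.96 and 25.7 CPM (log2 fold change -1.39, adjusted p = 0.0448). This call rested on WT replicate 1, without which the log2 fold change of TEX15 was -0.23 (adjusted p = 0.723, edgeR). TCFL5, a transcription factor of meiotic cells that acts with MYBL1, had 234 and 262 CPM against 200.2 and 186 CPM and did not pass the test (adjusted p = 0.261).

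The other genes called lower by edgeR had few counts. MYBL1, the meiotic activator of the pathway, had 25.4 and 24.3 CPM in WT against 10.2 and 6.28 CPM in Ctcf-cKO (log2 fold change -1.50, adjusted p = 0.0228). HENMT1, which methylates the 3′ ends of piRNAs, had 23.9 and 29.8 CPM against 10.6 and 2.51 CPM (log2 fold change -1.88, adjusted p = 0.0215). DNMT3L, the cofactor of transposon DNA methylation, had a log2 fold change of -2.16 (adjusted p = 0.00906), and GPAT2, a mitochondrial partner of PIWIL2, had -1.82 (adjusted p = 0.0371). SND1, a Tudor staphylococcal nuclease that is present in most cell types, was the gene called higher, with 3.58 and 1.65 CPM against 10.9 and 11.3 CPM (log2 fold change 2.11, adjusted p = 0.0332). The number of pathway genes called lower was 3 without WT replicate 1, 8 without WT replicate 2, 1 when Ctcf-cKO replicate 1 was left out, and 0 when it was Ctcf-cKO replicate 3 (edgeR). In single classes 8, 10 and 5 of the list were tested in spermatocyte-like, round spermatid-like and elongating spermatid-like cells. Of these 0 were called by edgeR or DESeq2 in any class, with 0 unadjusted p under 0.05. Over all genes tested, edgeR called 0%, 0% and 18.5% in these classes. In round spermatid-like cells the 5 pathway genes with most counts over all barcodes had intervals that included 0. DDX25 was at 0.01 (SE 0.32), GTSF1 at -0.53 (SE 0.34) and TCFL5 at -0.17 (SE 0.54). KIF17 was at 0.02 (SE 0.38) and TEX15 at -0.83 (SE 0.74). The median log2 fold change of the list in this class was -0.35, against -0.05 over all genes.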

How the data were processed

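The 4 libraries were 3′ single-cell libraries, 2 per genotype. The authors aligned the reads to GRCm38 (submitters' processing notes) and deposited tables of raw counts, with genes by symbol and cells by barcode. How reads of a molecule were merged is not given in the sources used here. In barcodes under 200 genes, 91.8% to 98.9% of values above 0 were 1 to 4, and the share equal to 4 was 6.17% and 9.24% in WT and 30.6% and 23.2% in Ctcf-cKO, so counts may not be independent molecules. Symbols turned into dates (21 to 23 per table, at most 0.245% of counts) were not tested.

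Cells had 200 to 7000 genes, at most 10% mitochondrial counts and at least 3 times the plateau count, the median of ranks 301 to 1000. Seurat 5.3.0 (2000 variable genes without the piRNA genes, 15 components, resolution 0.9) and Harmony (coded anew) gave clusters, named by at least 3 markers raised by 0.5 on the log2 scale in at least 10% of cells. For each mouse, the counts of a class were added up, and the sums were tested in edgeR 4.0.16 (TMM, filterByExpr, quasi-likelihood F test, adjusted p under 0.05 over all genes tested), with DESeq2 1.42.0 as an alternative. The SE is the log2 fold change over the square root of F. Tests were checked on simulated data, in which even 4-fold changes were rarely or never recovered in spermatocyte-like and round spermatid-like sums and mostly recovered in the others. Mice are the replicates, 2 per genotype, and the labels do not say whether libraries shared a preparation. A count of 0 was taken to allow 3 counts, and such limits cover counting error only.

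Scrublet (scanpy 1.11.5) marked 9, 6, 22 and 17 cells as doublets, which were kept and left out in an alternative. Named genes were all members, pathway genes past the threshold, the 5 pathway genes with most counts, and the 5 genes most like the members' sum with at least 20 counts per sum on average. The members and lists were chosen with earlier results of these data known. Gene positions came from GENCODE M21 and promoter windows from RefSeq. No gene on the same strand overlapped the 3′ end of a member. Other alternatives were size factors by median ratios, library totals alone, no filter on low counts, each mouse left out, free RNA subtracted, the barcodes with most genes, no mitochondrial limit, no batch correction, resolutions of 0.5 and 1.3 and clustering with the piRNA genes. Counts divided by 4 and rounded up, sums over kept cells and sums over barcodes under 200 genes were added after seeing the data.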

Additional observations from a re-analysis of the deposited data

Results flagged for a closer look

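TDRD6 differed in the direction of its step from spermatocyte-like to round spermatid-like cells, which went down in both WT mice and up in both Ctcf-cKO mice. The difference of the steps was 1.51 on the log2 scale and did not pass edgeR's test (SE 1.03, adjusted p = 1). It lay between 0.99 and 1.80 under the alternatives tried. MAEL showed the same opposite directions, with a difference of 0.38 (SE 1.17, adjusted p = 1, edgeR). Its step was small in WT replicate 2, from 1743 to 1718.5 CPM, and in Ctcf-cKO replicate 3, from 2064 to 2103 CPM. How many of all genes had opposite steps of this kind was not counted. The values rest on 5 to 32 spermatocyte-like cells per mouse.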

How the results depend on the processing

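With 2 mice per genotype, 5 to 32 spermatocyte-like cells per mouse and shallower Ctcf-cKO libraries, even large differences were mostly not detectable in spermatocyte-like and round spermatid-like cells, and with a mouse left out the lone mouse was assumed to vary like the others. No paired analysis was done because the labels name no pairs of WT and Ctcf-cKO mice. Clustering without batch correction was not run for spermatocyte-like cells or the steps between stages, since a mouse had under 5 cells. In all barcodes the number of members called, 7 with all mice, was 1 to 7 with a mouse left out, 0 over kept cells and 1 over barcodes under 200 genes. The share of all genes called lower was 10.4% with all mice and 2.09% to 13.1%, 3.18% and 0.585% in these settings, so the number called changed for all genes as well. With free RNA subtracted, 1 of 3 members tested was called higher in elongating spermatid-like cells, as were 355 of all 3192 genes. For the step from round to elongating it was 1 of 10 members and 21 of 7625 genes. The member was DDX4 in each case. The subtraction removed nearly all DDX4 counts of the WT elongating spermatid-like sums, so neither call is read as a difference between genotypes. The log2 ratio of round to elongating had a mean of 1.68 to 2.29 under the alternatives tried, above 0 in all 4 mice. Log2 fold changes that turned direction with a mouse left out ran from -0.024 to 0.56 for TDRD5 in spermatocyte-like cells, and in round spermatid-like cells from -7.52 (fitted against counts of 0) to 0.054 for PIWIL1, -0.50 to 0.021 for TDRD7, -3.01 to 0.59 for TDRD9, -0.42 to 0.078 for DDX4, -0.19 to 0.070 for MAEL and -0.39 to 0.22 for RNF17. They ran from -0.71 to 0.57 for TDRD6 in elongating spermatid-like cells and from -1.18 to 0.063 for PIWIL2 in all barcodes. In round spermatid-like cells MAEL also turned to -0.11 without the filter on low counts and to -0.071 without batch correction, and RNF17 to 0.15 with counts divided by 4. In elongating spermatid-like cells TDRD6 turned to -0.13 without the filter, -0.19 with the barcodes of most genes, -0.61 without doublets and -0.35 with piRNA genes kept for clustering. Without batch correction it was -1.09 for TDRD6, -2.20 for TDRD7, -1.24 for DDX4 and -0.38 for MAEL. In barcodes under 200 genes PIWIL2 turned to 0.26 and TEX15, which had passed the test, to 0.49, and over kept cells TDRD5 turned to 0.18. The cause was not tested. The 7 members called in all barcodes kept their direction in every setting.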

Other observations

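The members' sum in free RNA was higher in WT than in Ctcf-cKO, at 3639 and 2831 CPM against 1547 and 2013 CPM in barcodes with fewer than 200 genes. These barcodes numbered 1367 and 4392 in WT against 5592 and 6114 in Ctcf-cKO, so the pools compared were unlike. Free RNA held more of these transcripts than the elongating spermatid-like cells of the same mouse in all 4 mice. PIWIL4, the PIWI protein of fetal germ cells, had 2, 2, 2 and 4 counts over all barcodes, too few to be tested; it was chosen after its values were seen.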
